A study of Rattus norvegicus and Mus musculus with 34 samples.

Results

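Collagens are the fibres, sheets and anchors of the extracellular matrix, and healing tissue lays them down in sequence. In all, 44 rows of the rat tables carry a collagen chain symbol, and 40 of the 20022 genes remained for description after Col2a1, Col9a1, Col10a1 and Col11a1, 4 chains known from cartilage, were set aside. The rule is one of names only. It keeps Col9a2, Col9a3 and Col11a2, chains that cartilage also uses, so the 40 genes are not all foreign to cartilage. Each gene was placed in a class. The fibrillar class holds 9 genes, the basement membrane class 9, the network class 8, the transmembrane class 4, and the FACIT class (fibril-associated collagens with interrupted triple helices) 8. The last 2 genes, Col26a1 and Col28a1, were listed apart. Col21a1 was not analysed here.

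Healing tissue was taken from a periodontal bone defect in the mandible of wild-type male Sprague-Dawley rats aged 6 to 8 weeks. In the sensory nerve− group about 5 mm of the inferior alveolar nerve was removed when the defect was made, and in the sensory nerve+ group the nerve was left intact. All rats received penicillin for 3 days, and tissue was collected at day 3, day 7 or day 14. The sensory nerve+ group holds 3 rats at day 3 and 4 at each later day, and the sensory nerve− group holds 4 at each day, 23 rats in all. The cells are labelled as mixed. The nerve− rats of day 7, and no others, come from a table of their own. In comparisons with these rats, an effect that goes with that table cannot be told apart from that of transection or day. In such bulk tissue, fewer cells of a type and less RNA per cell cannot be told apart.

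Fibrillar chains form the fibrils of bone, ligament and skin. Basement membrane chains form the sheets under epithelium, endothelium, muscle and Schwann cells. The chains listed as network, of types VI and VIII, build filaments or lattices around cells, FACIT chains decorate the surface of fibrils, and transmembrane chains tie cells to their matrix. Procollagen chains are hydroxylated and folded before secretion. Fibrillar chains are trimmed mainly during or after secretion, and enzymes of the lysyl oxidase family then crosslink them.

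The libraries held 14854598 to 18742423 counts each, and the 40 genes took 1.68% to 8.96% of them. Levels are given as CPM, counts scaled to a common library size with TMM (the trimmed mean of M-values, edgeR's scaling between libraries). Several rats stood apart. The sum of 8 tooth markers reached at least 3846 CPM in nerve+ day 3 rats 2 and 3 and nerve− day 3 rat 3, against at most 799 CPM elsewhere. The sum of 8 skeletal muscle markers was 17.9 to 381 CPM in all day 3 rats and 1575 to 32869 CPM in all day 7 rats. At day 14 it was 11013 to 24961 CPM in 3 nerve+ rats, 224 CPM in nerve+ rat 2 and 210 to 6821 CPM in the nerve− rats. The sum of 8 osteoblast markers was 787 to 7022 CPM in the nerve− day 14 rats and 634 to 2512 CPM in the nerve+ day 14 rats. The parts of these markers in the results below were not tested.

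**Figure D1:**
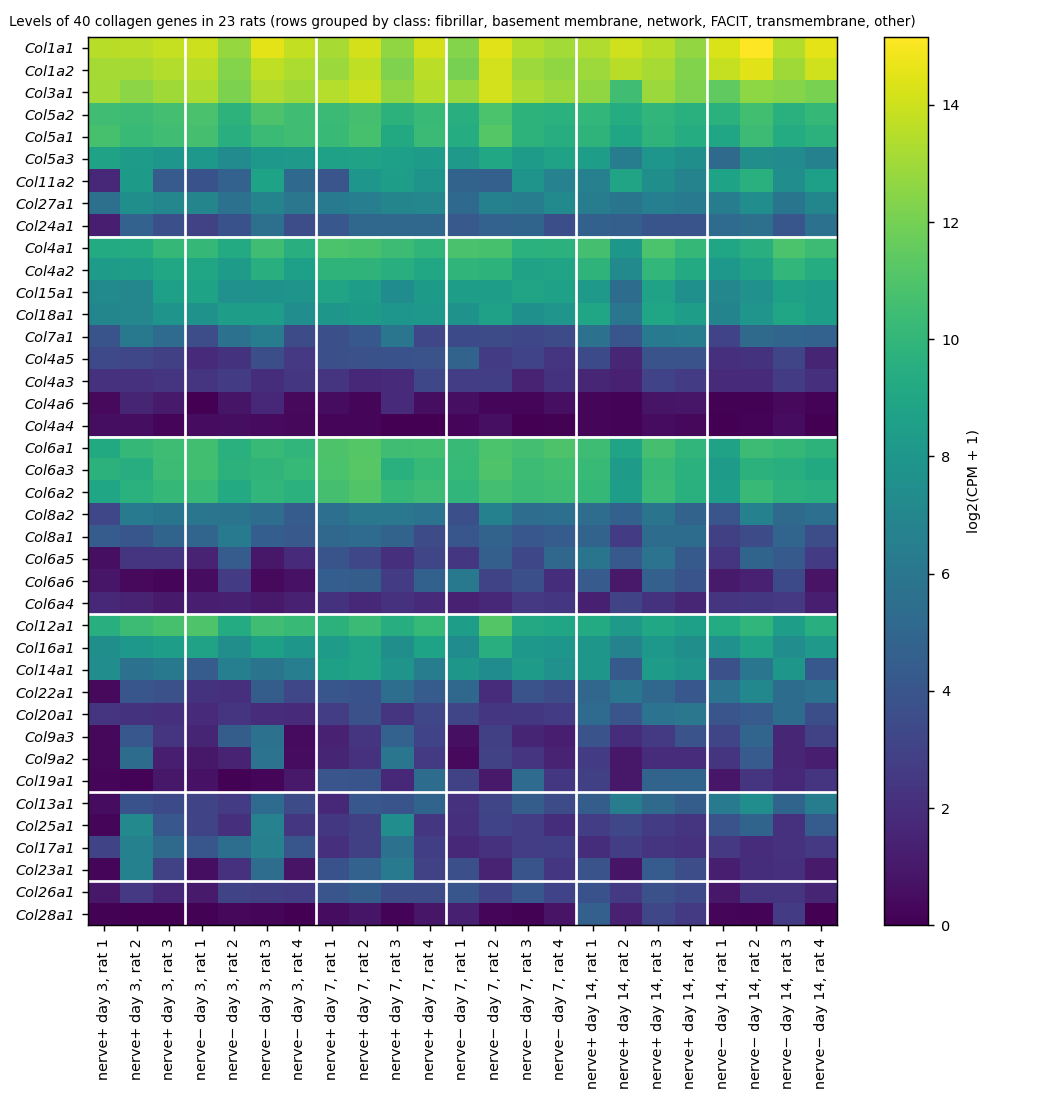
Each row is 1 of the 40 genes, grouped by class, each column 1 of the 23 rats, and colour gives log2(CPM + 1). The 3 brightest rows are Col1a1, Col1a2 and Col3a1, and nerve+ day 14 rat 2 is darker than the other nerve+ day 14 rats in Col3a1 and Col14a1.

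The fibrillar class held most of the collagen reads in all rats. Its share of the summed level of the 40 genes was 70.5% to 93.1%, with a median of 81.7% over 23 rats. The network class took 2.64% to 15.2%, the basement membrane class 1.54% to 13.0%, the FACIT class 1.47% to 4.75%, and the transmembrane class 0.0220% to 1.12%. Of the 40 genes, 9 averaged over 1000 CPM across the rats, 8 lay between 100 and 1000 CPM, 13 between 10 and 100 CPM, and 10 under 10 CPM. Longer transcripts draw more reads, so genes were also ordered per kilobase of the longest coding mouse transcript of the same symbol, the only length at hand. On that scale Col1a1, the main chain of bone and ligament fibrils, led at 2479 CPM per kb, followed by Col1a2 at 1964 and Col3a1, the fibril chain of early and elastic tissue, at 1417. The highest gene of each other class was far lower: Col6a1 reached 316 CPM per kb, Col4a1 176, Col12a1 80.5, Col13a1 9.75 and Col26a1 2.85.

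By group, the mean network share was 7.04%, 11.1% and 9.03% in nerve+ rats at days 3, 7 and 14, and 7.80%, 11.8% and 5.01% in nerve− rats. The mean basement membrane share was 3.97%, 6.69% and 7.57% in nerve+ rats and 4.87%, 7.13% and 5.32% in nerve− rats. The fibrillar share was 84.5%, 78.0% and 80.3% in nerve+ rats and 83.1%, 77.6% and 87.2% in nerve− rats. The fibrillar mean was thus lowest at day 7 in both nerve groups; these shares were not tested.

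Several low members were carried by single rats. Col25a1, a transmembrane chain of neurons and developing muscle, was 0.197, 142 and 16.5 CPM in the nerve+ day 3 rats and 7.58, 3.05, 105 and 4.25 CPM in the nerve− day 3 rats. Col23a1, another transmembrane chain, was 0.197, 98.3 and 6.49 CPM and 0.467, 3.48, 41.4 and 0.754 CPM in the same rats. Col9a2 was 0.263, 40.6 and 1.39 CPM and 0.934, 1.86, 52.7 and 0.431 CPM. The highest values of all 3 genes at day 3 lay in nerve+ rat 2 and nerve− rat 3, both among the rats with high tooth markers. The other such rat, nerve+ rat 3, had the highest tooth marker sum, 23206 CPM, with 16.5, 6.49 and 1.39 CPM of the 3 genes. In nerve+ day 3 rats the sum of 8 epithelial markers was 38.8, 863 and 436 CPM. In nerve− day 3 rats it was 110, 273, 512 and 52.0 CPM. The sum of 8 cartilage markers was 17.5, 414 and 149 CPM and 200, 71.1, 389 and 58.0 CPM in the same rats. The part of the tooth, epithelial and cartilage markers in the result was not tested.

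Some pairs of chains that assemble into one molecule kept a narrow ratio. The Col1a1 to Col1a2 count ratio ran from 1.22 to 1.73 over 23 rats, a 1.42-fold range, while Col1a1 itself ran from 5239 to 36631 CPM. The Col6a1 to Col6a2 ratio ran from 1.07 to 1.37. The Col4a1 to Col4a2 ratio ran from 1.75 to 2.15, although the level of Col4a1 ran from 264 to 1896 CPM. These chains make the main type I, VI and IV molecules. The type V partners were less even, with a Col5a1 to Col5a2 ratio of 0.595 to 1.23, a 2.07-fold range. The ratios of the other type IV pairs ran wider on few counts. Col4a5 to Col4a6 ran from 4.34 to 59.8 in the 18 rats with at least 3 counts of both, and Col4a3 to Col4a4 from 7.10 to 33.3 in 15 rats. Col4a4 held 0 to 10 counts a rat and Col4a6 0 to 60, so counting error alone widens those ratios, and whether the pairs differ was not tested. All values of a pair come from the same library.

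The type IV pairs lie head to head on opposite strands, and RefSeq windows of 250 bases before to 50 after the annotated start (GRCr8) were matched by symbol for 32 of the 40 genes. The read counts themselves were made on mRatBN7.2, so no position of the count tables is used. The first listed window was used for each. The starts of Col4a1 and Col4a2 lie 77 bases apart and their windows share 176 bases. Those of Col4a3 and Col4a4 lie 413 bases apart, and those of Col4a5 and Col4a6 1415. The windows of the plus-strand partners are shown first, to show the starts that each pair of neighbouring genes shares or adjoins. Capitals mark 3 motifs searched on both strands, and overlapping matches were each counted. The GC box is GGGCGG on the printed strand when it lies on that strand, and its reverse complement otherwise. The second motif, the CCAAT box, and the third, the TATA box with the letters TATAAA, were searched likewise.

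Col4a1 (chr16:84885347-84885646, plus strand): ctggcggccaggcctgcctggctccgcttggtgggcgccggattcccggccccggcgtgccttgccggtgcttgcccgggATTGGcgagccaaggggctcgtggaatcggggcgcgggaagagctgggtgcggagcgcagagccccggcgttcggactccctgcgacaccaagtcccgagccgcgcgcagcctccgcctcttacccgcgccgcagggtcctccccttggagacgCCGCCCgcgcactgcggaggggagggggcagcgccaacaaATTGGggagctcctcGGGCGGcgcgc
Col4a3 (chr9:91323740-91324039, plus strand): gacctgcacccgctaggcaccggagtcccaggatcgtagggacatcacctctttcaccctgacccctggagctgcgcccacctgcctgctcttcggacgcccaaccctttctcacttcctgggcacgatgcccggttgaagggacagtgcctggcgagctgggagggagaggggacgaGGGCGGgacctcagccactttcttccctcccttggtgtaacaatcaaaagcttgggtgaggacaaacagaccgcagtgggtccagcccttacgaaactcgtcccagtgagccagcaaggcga
Col4a5 (chrX:109907109-109907408, plus strand): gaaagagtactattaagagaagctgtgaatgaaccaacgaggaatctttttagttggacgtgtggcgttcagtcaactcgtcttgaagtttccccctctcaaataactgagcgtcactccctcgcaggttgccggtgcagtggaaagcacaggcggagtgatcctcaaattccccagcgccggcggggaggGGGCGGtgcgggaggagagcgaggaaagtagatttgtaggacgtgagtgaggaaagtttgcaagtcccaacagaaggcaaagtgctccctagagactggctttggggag

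The next windows belong to Col1a2, the partner chain of Col1a1, and to Col17a1 and Col20a1, the members called between days 3 and 14 in both nerve groups.

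Col1a2 (chr4:33518307-33518606, plus strand): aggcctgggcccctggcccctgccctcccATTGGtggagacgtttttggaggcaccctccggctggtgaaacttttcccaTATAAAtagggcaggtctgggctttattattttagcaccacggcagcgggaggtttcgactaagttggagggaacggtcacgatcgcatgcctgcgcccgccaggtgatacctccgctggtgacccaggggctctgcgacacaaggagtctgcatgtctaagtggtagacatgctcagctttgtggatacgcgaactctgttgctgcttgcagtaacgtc
Col17a1 (chr1:256518808-256519107, minus strand): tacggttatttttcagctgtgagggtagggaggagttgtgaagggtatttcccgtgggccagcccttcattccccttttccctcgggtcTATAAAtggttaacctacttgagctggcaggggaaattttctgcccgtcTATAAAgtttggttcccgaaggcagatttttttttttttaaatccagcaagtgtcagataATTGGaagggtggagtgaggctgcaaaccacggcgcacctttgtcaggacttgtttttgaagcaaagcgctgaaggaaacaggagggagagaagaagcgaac
Col20a1 (chr3:188479252-188479551, plus strand): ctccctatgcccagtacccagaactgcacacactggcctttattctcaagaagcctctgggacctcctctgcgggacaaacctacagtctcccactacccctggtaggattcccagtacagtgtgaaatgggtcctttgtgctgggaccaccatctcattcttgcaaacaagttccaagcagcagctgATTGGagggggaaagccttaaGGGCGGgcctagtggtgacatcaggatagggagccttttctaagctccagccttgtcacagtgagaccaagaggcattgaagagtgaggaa

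The GC box was found in 18 of the 32 member windows (56.2%), against 34.9% of the 27457 windows with 300 bases. The CCAAT box was found in 9 (28.1%, against 37.7%), and the TATA box in 3 (9.38%, against 14.3%). The 3 windows with the TATA box are those of Col1a2, Col13a1 and Col17a1. The median GC content was 59.7% in member windows and 52.3% in all windows, and the motifs themselves differ in GC content. A match describes letters only.

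**Figure D2:**
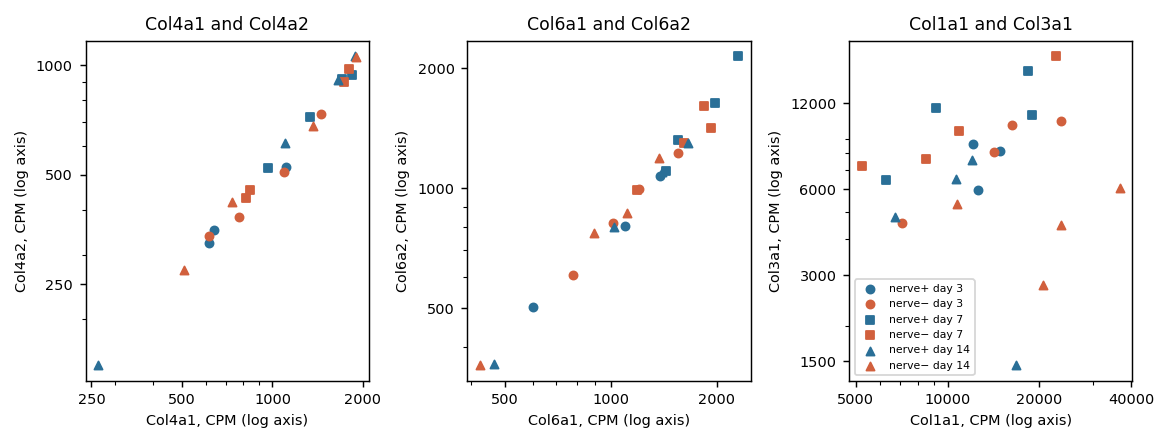
Each point is 1 rat, with CPM of 1 chain against the other on log axes (blue, nerve+; orange, nerve−; circles day 3, squares day 7, triangles day 14). Col4a1 and Col4a2, and Col6a1 and Col6a2, fall near straight lines, whereas the Col3a1 to Col1a1 ratio is 0.0866 in nerve+ day 14 rat 2 and 0.136, 0.165 and 0.191 in nerve− day 14 rats 1, 2 and 4, the lowest of the 23 rats.

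The question of the study was how healing differs without the sensory nerve, and the first comparison set nerve− against nerve+ rats at each day. At none of the 3 days was a member of any class called. edgeR's quasi-likelihood test with Benjamini-Hochberg adjustment called 0 of 38 members tested at day 3, against a background of 0% of 14695 genes. It called 0 of 38 at day 7 (0% of 14716) and 0 of 38 at day 14 (0% of 14610). At an unadjusted p under 0.05 there were 0, 2 and 5 members (background 0.83%, 1.46% and 9.32%). DESeq2 called 0, 0 and 1 members, and 0, 1 and 103 of all 20022 genes. Single rats moved these unadjusted counts, while the adjusted count stayed at 0 with any 1 rat left out. The counts over all genes, given in brackets, moved too. The 5 at day 14 (1362 of 14610) became 14 without nerve+ rat 2 (3235 of 14809) and 13 without nerve− rat 3 (1903 of 14914). They became 1 without nerve+ rat 3 (755), 2 without nerve+ rat 4 (589) or nerve− rat 4 (641) and 3 without nerve− rat 1 (787). With scaling by library total they became 12 (1801). The 2 at day 7 (215) became 5 without nerve+ rat 4 (466), 4 without nerve+ rat 1 (487), 1 without nerve− rat 3 (128), and 0 without nerve+ rat 3 (73) or nerve− rat 4 (59). At day 3 the count was 0 to 2, highest without nerve+ rat 3 (263). Groups did not overlap for 0 members at day 3 (background 1.61%), 0 at day 7 (0.775%) and 1 at day 14 (3.35%).

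Col1a1 at day 14 was 10686, 16802, 11995 and 6728 CPM in the nerve+ rats and 20511, 36631, 10697 and 23485 CPM in the nerve− rats. On this scale, 3 of the 4 nerve− rats were above all nerve+ rats, and rat 3 was within their range. The order depended on the scaling. As a share of all counts, Col1a1 was 1.70%, 4.29%, 0.534% and 1.63% in the nerve− rats. In the nerve+ rats that share was 1.21%, 2.12%, 1.19% and 0.660%. By share, only nerve− rat 2 was above all nerve+ rats, and nerve− rat 3 was below them all. Hba-a1, a haemoglobin chain of red blood cells, took 12.9%, 0.130%, 23.4% and 15.3% of all counts in these nerve− rats and 0.676% to 9.46% in the nerve+ rats. All 8 erythroid markers had a log2 fold change above 0 (median 1.74) and 0 of 8 were called. Their summed level was 2061 to 920801 CPM in nerve− and 10215 to 188604 CPM in nerve+ rats. All 8 osteoblast markers also had a log2 fold change above 0 (median 1.76), and 0 of 8 were called. Their sum was 3294, 7022, 787 and 4424 CPM in the nerve− rats and 847, 2512, 1029 and 634 CPM in the nerve+ rats. The part of either list in the day 14 results was not tested. The log2 fold change of Col1a1 was 0.98 ± 0.56 (SE), with an adjusted p of 0.541, and 1.18 without nerve− rat 3, the rat with the highest Hba-a1 share (adjusted p = 0.424). The log2 fold change was 0.20 ± 0.43 at day 3 (adjusted p = 1.00) and -0.16 ± 0.65 at day 7 (adjusted p = 1.00).

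Col4a1 gave log2 fold changes of 0.31 ± 0.36 at day 3, -0.18 ± 0.36 at day 7 and -0.12 ± 0.63 at day 14, with adjusted p of at least 0.960. Col6a1 gave 0.12 ± 0.34, -0.15 ± 0.27 and -0.26 ± 0.47 at the same days, with adjusted p of at least 0.861. Col12a1, a FACIT chain of ligament and bone surface, gave 0.06 ± 0.43, -0.13 ± 0.57 and 0.60 ± 0.35, with adjusted p of at least 0.548. Col13a1, a transmembrane chain of neuromuscular junctions and bone, gave 0.95 ± 1.11, -0.53 ± 0.72 and 1.13 ± 0.61, with adjusted p of at least 0.524. None of these values passed the test.

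Col26a1 was the member with the smallest p at day 14. Its level was 13.3, 4.99, 12.5 and 8.996 CPM in the nerve+ rats and 0.976, 3.83, 3.83 and 1.92 CPM in the nerve− rats. The groups did not overlap. The log2 fold change was -1.91 ± 0.51 (SE) with an adjusted p of 0.519, and DESeq2 gave an adjusted p of 0.0306. At day 3 the log2 fold change was 0.93 ± 0.76 and at day 7 it was -0.30 ± 0.37. A test of the interaction of transection and day over 39 members called 0 of them (background 0% of 15858 genes). DESeq2 called 0 members and 0 of 20022 genes. In edgeR 1 member had an unadjusted p under 0.05, against 3% of all genes. That 1 member was Col26a1, with an edgeR adjusted p of 0.998. With 1 rat left out this unadjusted count was 1 to 4, highest without nerve− day 14 rat 3 (4) and next without nerve+ day 3 rat 2 or day 14 rat 2 (3 each). Over all genes these fits gave 764, 597 and 1243, against 475 with all rats.

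By class, directions were counted at each day. At day 7, of 38 members, 32 had a log2 fold change below 0, with a median of -0.20, where 48.8% of all 14716 genes tested were above 0 with a median of -0.01. All nerve− rats of day 7 come from the separate table, whose effect cannot be told apart from that of transection here. FACIT members were below 0 in 8 of 8 cases (median -0.47), fibrillar in 8 of 9 (-0.15), basement membrane in 6 of 7 (-0.18), transmembrane in 4 of 4 (-1.94) and network in 5 of 8 (-0.095). The genes are not independent, and nerve+ rat 3 carried much of the transmembrane value: Col25a1 was 4.52, 6.41, 169 and 4.22 CPM in the nerve+ rats and 3.37, 7.18, 5.72 and 3.02 CPM in the nerve− rats. That rat also had the highest tooth marker sum below the 3 rats set apart, 799 CPM. Its epithelial marker sum was 358 CPM, against 10.3 to 24.4 CPM in the other nerve+ day 7 rats. The part of these markers in the result was not tested. At day 14, 16 of 38 members were above 0 (53.4% of all genes). Fibrillar members were above 0 in 7 of 9 cases (median 0.49), network members in 1 of 8 (median -0.38) and basement membrane members in 1 of 7 (median -0.21). At day 3, 23 of 38 members were above 0 (48.1% of all genes), and the medians of the fibrillar, basement membrane and network classes were 0.10, 0.23 and 0.19.

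**Figure D3:**
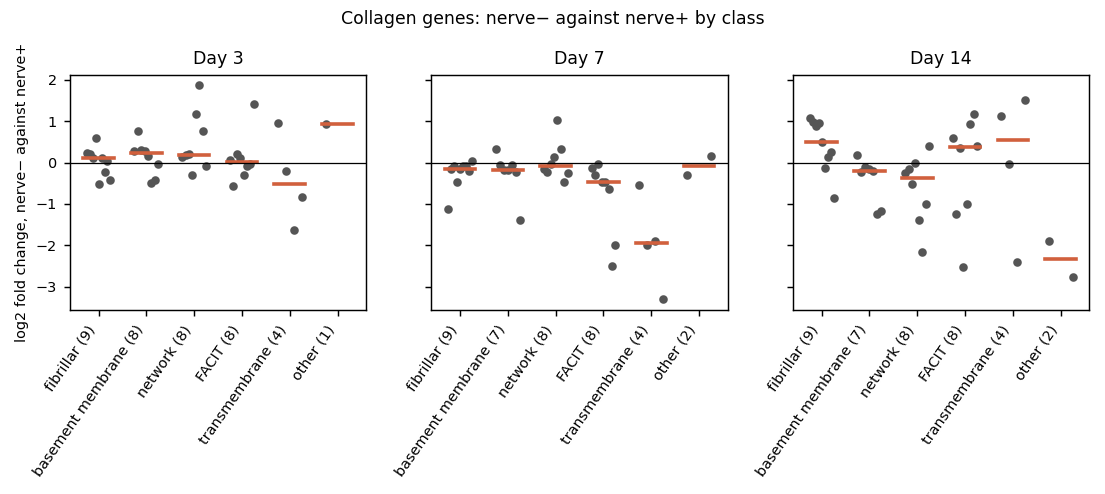
Each point is the log2 fold change of 1 tested gene, nerve− against nerve+, in 1 panel per day, and the orange line is the class median (number of genes in brackets). Points lie on both sides of 0 at days 3 and 14, and 32 of 38 lie below 0 at day 7.

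Between days, members were called in both nerve groups. In nerve+ rats from day 3 to day 7, 3 of 38 members rose and none fell, 7.89% against a background of 6.67% of 15016 genes (4.88% higher and 1.79% lower). Ranges were separate for 9 of 38 members, against 25.5% of all genes. Col6a6, a type VI chain, was 0.854, 0.287 and 0.206 CPM at day 3 and 22.5, 21.1, 5.61 and 24.7 CPM at day 7 (log2 fold change 5.42 ± 0.77, adjusted p = 0.0116). Col19a1, a FACIT chain, was 0.197, 0.0955 and 0.979 CPM at day 3 and 14.9, 14.3, 2.40 and 39.3 CPM at day 7 (5.40 ± 1.21, adjusted p = 0.0463). Col26a1 was 0.985, 4.73 and 2.32 CPM at day 3 and 15.1, 21.1, 10.7 and 10.0 CPM at day 7 (2.45 ± 0.56, adjusted p = 0.0477). All 3 genes had separate ranges at the 2 days. The day 3 counts of Col19a1 and Col6a6 were 2 to 19 and 4 to 13, so their folds are imprecise. All 8 skeletal muscle markers also rose in this comparison, and their part in the result was not tested. Col6a6 was the 1 member called without nerve+ day 3 rat 1 or without day 7 rat 1, 2 or 4. Without day 3 rat 3 none of the 3 was called, and Col18a1, a basement membrane chain that carries endostatin, was. With 1 rat left out, the calls over all genes ran from 254 to 1547, against 1002 with all rats. Leaving out both nerve+ day 3 rats with high tooth markers leaves 1 rat at day 3, and that fit called 5 of 15819 genes and 0 members, so it bears little on the members.

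In the same comparison the network class had 8 of 8 members above 0 and a median of 0.85, and Col6a6 was the 1 member of the class that passed the test. The basement membrane class had 6 of 8 members above 0 (median 0.66), the FACIT class 7 of 8 (median 0.89) and the fibrillar class 6 of 9 (median 0.07). Over all genes 54% were above 0, with a median of 0.05. Col6a1 was 602, 1100 and 1381 CPM at day 3 and 1977, 2291, 1432 and 1551 CPM at day 7, with no overlap, a log2 fold change of 0.87 ± 0.34 and an adjusted p of 0.170.

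In nerve− rats from day 3 to day 7, 1 of 37 members rose and 1 fell, 5.41% against 10.5% of 14576 genes (3.68% higher and 6.77% lower). Ranges were separate for 4 of 37 members, against 21.6% of all genes, and 22 lay above 0, against 48.8%. Col14a1, a FACIT chain of fibril surfaces, was 20.3, 92.9, 54.9 and 89.8 CPM at day 3 and 263, 164, 320 and 199 CPM at day 7 (1.86 ± 0.47, adjusted p = 0.0434). Leaving out any 1 rat ended this call. Other members were called in its place without nerve− day 7 rat 1 (Col6a4) or rat 2 (Col19a1), and 0 members without nerve− day 3 rat 1 or 2 or day 7 rat 3 or 4. Over all genes, the fits with 0 members called 0, 508, 3 and 779, against 1524 with all rats. Col17a1, the transmembrane collagen of epithelial anchoring junctions, was 15.3, 42.7, 96.97 and 15.9 CPM at day 3 and 2.36, 3.43, 5.72 and 6.03 CPM at day 7 (fell by 3.32 ± 0.70 on the log2 scale, adjusted p = 0.0257). This call held in 2 of the 8 fits that leave out 1 rat, those without nerve− day 3 rat 3 or 4, and was lost with the replicate block. The summed level of 8 epithelial markers was 52.0 to 512 CPM in the nerve− day 3 rats and 7.97 to 19.5 CPM in the nerve− day 7 rats, and its part in the result was not tested. The transmembrane class was below 0 in 4 of 4 members (median -1.63).

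From day 7 to day 14, 0 of 38 members were called in nerve+ rats (background 0.0202% of 14867 genes) and 0 of 37 in nerve− rats (0.0138% of 14447 genes). At an unadjusted p under 0.05 there were 6 and 13 members (background 9.42% and 23.5%). DESeq2 called 4 and 11 members, and 335 and 2012 of all 20022 genes. Ranges were separate for 4 of 38 and 7 of 37 members, against 5.73% and 12.3% of all genes. In nerve− rats Col3a1 was 7244, 17504, 9545 and 7639 CPM at day 7 and 2781, 6058, 5323 and 4486 CPM at day 14. The ranges were separate, with a log2 fold change of -1.16 ± 0.48 and an adjusted p of 0.192. In nerve+ rats 28 of 38 members were below 0 (median -0.37), where 46.6% of all genes were above 0. In nerve− rats it was 22 of 37 (median -0.19), where 49.2% of all genes were above 0.

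From day 3 to day 14, 3 members rose and 1 fell of 39 in nerve+ rats, 10.3% against 5.78% of 15065 genes (2.69% higher and 3.09% lower). Ranges were separate for 12 of 39 members, against 24.6% of all genes, and 23 lay above 0, against 50.2%. Col20a1, a FACIT chain, was 3.81, 3.58 and 3.30 CPM at day 3 and 39.2, 15.0, 53.8 and 62.5 CPM at day 14 (3.60 ± 0.51, adjusted p = 0.0272). Col6a5, a type VI chain, was 0.525, 3.92 and 3.92 CPM at day 3 and 59.2, 17.996, 54.9 and 18.5 CPM at day 14 (3.75 ± 0.83, adjusted p = 0.0492). Col28a1, a chain known from peripheral nerve, had 1 count in the day 3 rats together and 702 counts in the day 14 rats (23.7, 1.60, 8.56 and 4.98 CPM). Its ratio per library total was 565, with a 95% exact counting interval of 101 to 22350, which covers counting error only; the adjusted p was 0.0365. The Schwann cell marker sum was 82.2 to 130 CPM at day 3 and 309 to 2827 CPM at day 14 in nerve+ rats. The skeletal muscle marker sum was 25.6 to 59.3 CPM and 224 to 24961 CPM in the same rats. Called higher were 5 of 8 Schwann cell markers and 6 of 8 skeletal muscle markers. In nerve− rats Col20a1 also rose from day 3 to day 14. There 0 of 7 Schwann cell markers tested and 7 of 7 skeletal muscle markers tested had a log2 fold change above 0. The part of either list in these results was not tested.

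Col17a1 was the member that fell, from 7.48, 101 and 36.4 CPM at day 3 to 2.95, 5.63, 3.85 and 3.50 CPM at day 14 (-3.60 ± 0.79, adjusted p = 0.0488). These calls depended on single rats. The calls over all genes moved with them, from 871 of 15065 with all rats. Without nerve+ day 14 rat 2, in which muscle markers were low, 9 members and 3133 of 14898 genes were called. Without nerve+ day 14 rat 1, 3 or 4, 0 members were called, and 2, 0 and 0 genes in all. Without nerve+ day 3 rat 1, 1 member and 177 of 15417 genes were called. Without day 3 rat 2 or 3, 0 members were called, and 257 and 0 genes in all. Without both of the latter, 1 day 3 rat remains, and 1 of 15748 genes and 0 members were called.

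In nerve− rats from day 3 to day 14, 4 members rose and 1 fell of 37, 13.5% against 23.5% of 14449 genes (8.89% higher and 14.6% lower). Ranges were separate for 3 of 37 members, against 26.7% of all genes, and 17 lay above 0, against 47.1%. Col20a1 was 2.45, 3.76, 2.85 and 2.58 CPM at day 3 and 15.3, 19.2, 39.6 and 11.3 CPM at day 14 (2.84 ± 0.42, adjusted p = 0.00439). Col22a1, a FACIT chain of muscle and tendon junctions, was 3.62, 3.19, 21.1 and 8.18 CPM at day 3 and 53.6, 132, 39.8 and 48.4 CPM at day 14 (2.87 ± 0.70, adjusted p = 0.0236). The ranges of both were separate at the 2 days.

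Col13a1 was 7.58, 5.43, 37.6 and 10.2 CPM at day 3 and 72.9, 170, 28.0 and 86.1 CPM at day 14 (2.50 ± 0.75, adjusted p = 0.0459). Col6a4, a low type VI chain, was 1.40, 1.48, 1.07 and 1.67 CPM at day 3 and 3.98, 4.45, 4.82 and 1.47 CPM at day 14 (1.36 ± 0.40, adjusted p = 0.0420). Col17a1 fell to 4.63, 2.87, 3.39 and 4.67 CPM at day 14 (-3.51 ± 0.66, adjusted p = 0.0104). Col13a1 and Col6a4 overlapped between days, and Col17a1 did not. Calls of Col17a1 and Col20a1 held with each of the 8 rats left out, and in all 8 other fits. With 1 rat left out at a time, 2 to 6 members were called, the fewest without nerve− day 3 rat 1, 2 or 4 (2 each) and without nerve− day 14 rat 1 or 2 (3 each). Over all genes 1620 to 4346 were then called, against 3396 with all rats. The osteoblast marker sum was 339 to 2962 CPM in the nerve− day 3 rats and 787 to 7022 CPM in the nerve− day 14 rats, and its part in the rise of Col13a1 and Col22a1 was not tested.

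**Figure D4:**
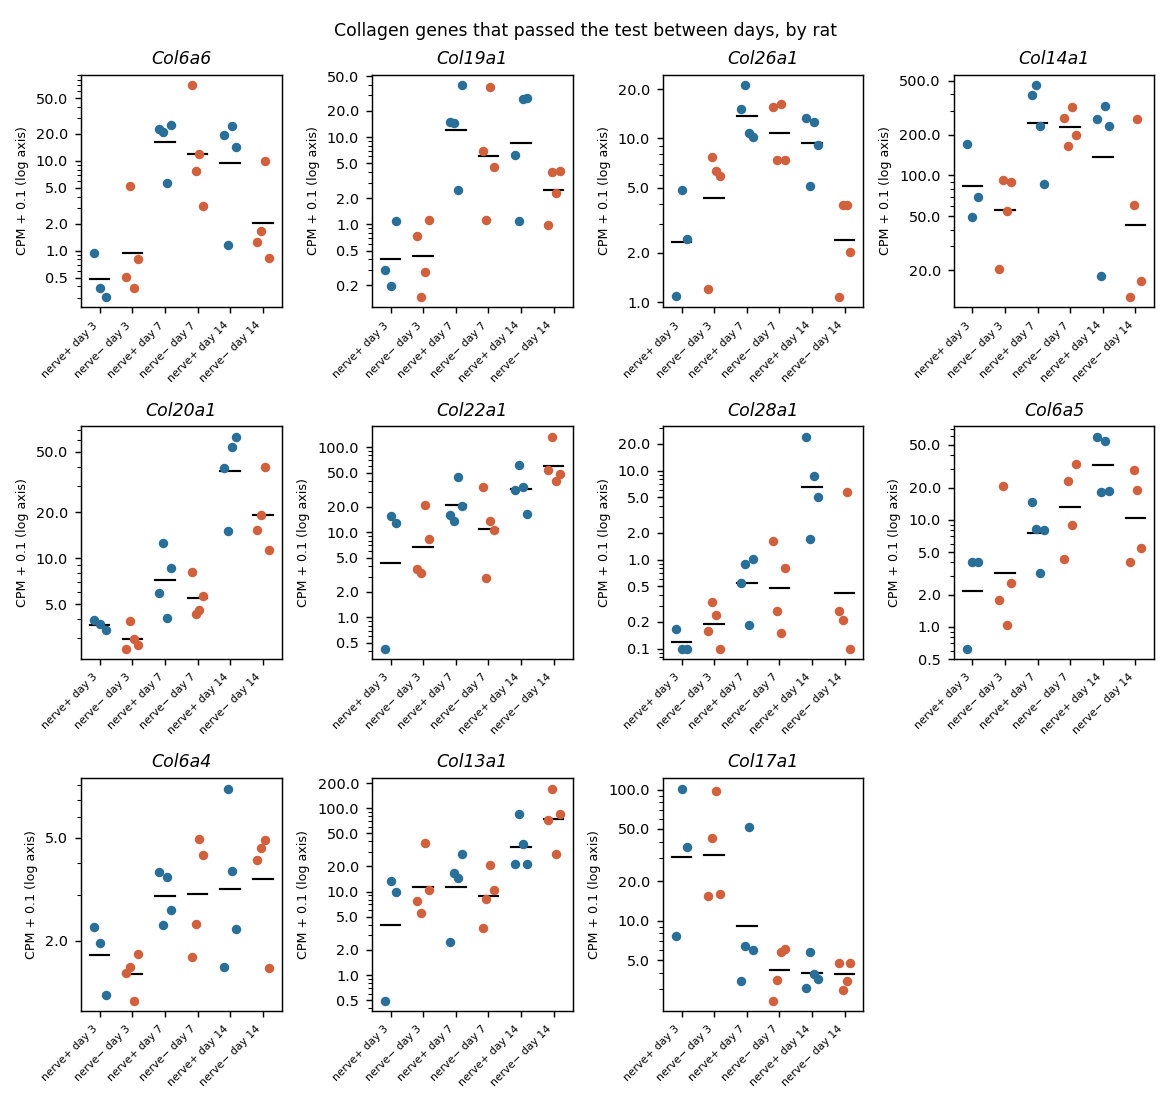
Each panel shows 1 of the 11 genes called in a comparison of days, with 1 point a rat (CPM + 0.1, log axis) and a bar at the geometric mean (blue, nerve+; orange, nerve−). Col20a1 is highest at day 14 in both nerve groups, and Col17a1 is highest at day 3.

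The 2 nerve groups were each compared with their own day 3 rats, so these counts say nothing of a difference between nerve groups, which the interaction test above addressed. Col20a1 and Col17a1 were called in both groups from day 3 to day 14.

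The balance of type III to type I collagen was followed as a count ratio. Col3a1 forms thin fibrils early in repair, and Col1a1 makes the thick ones. The Col3a1 to Col1a1 count ratio was 0.713, 0.475 and 0.551 in nerve+ day 3 rats and 0.622, 0.647, 0.443 and 0.573 in nerve− day 3 rats. At day 7 it was 1.25, 0.848, 1.03 and 0.576 in nerve+ rats and 1.38, 0.769, 0.877 and 0.902 in nerve− rats. At day 14 it was 0.611, 0.0866, 0.634 and 0.711 in nerve+ rats and 0.136, 0.165, 0.498 and 0.191 in nerve− rats.

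In nerve− rats the day 7 ratios lay above all day 3 ratios and the day 14 ratios below all day 7 ratios. The mean log2 differences were 0.76 and -2.16, each with p = 0.0286 in a two-sided exact permutation test, the smallest p that 4 rats against 4 allow, and an adjusted p of 0.129 over 9 comparisons. Nerve− rats at day 14 against nerve+ rats gave -0.87 (p = 0.400, exact permutation test), and leaving out nerve+ rat 2, which had a ratio of 0.0866, gave -1.60 (p = 0.0571, the smallest that 4 rats against 3 allow). At day 3 and day 7 the differences were -0.02 (p = 0.971, exact permutation test) and 0.10 (p = 0.800). In nerve+ rats the changes were 0.64 from day 3 to day 7 (p = 0.114, exact permutation test) and -1.18 from day 7 to day 14 (p = 0.114). The other 2 comparisons, day 14 against day 3, gave -0.54 (p = 0.914, exact permutation test) in nerve+ and -1.40 (p = 0.0571) in nerve− rats. No difference passed the adjusted threshold.

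**Figure D5:**
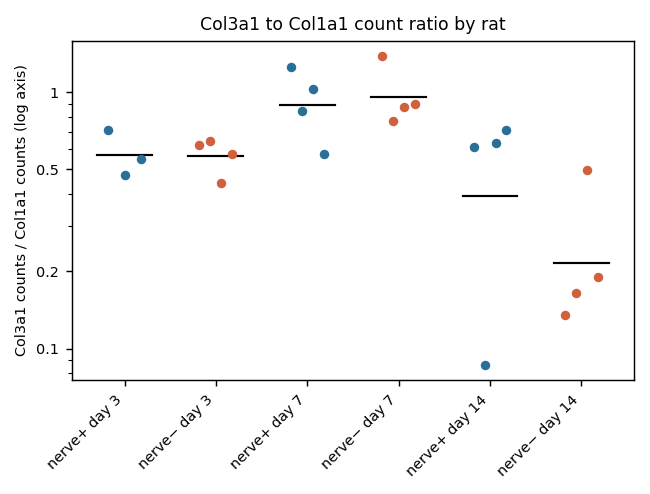
Each point is the Col3a1 count divided by the Col1a1 count in 1 rat, on a log axis, with a bar at the geometric mean (blue, nerve+; orange, nerve−). The nerve− day 14 rats lie between 0.136 and 0.498 and below all day 7 rats.

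Genes that process, crosslink, coat or bind collagen were followed in 4 lists. In the list of 27 processing and secretion genes, 1 rose and 10 fell from day 3 to day 14 in nerve+ rats, and 0 rose and 7 fell in nerve− rats. Over all genes 2.69% rose and 3.09% fell in nerve+ rats, and 8.89% rose and 14.6% fell in nerve− rats. The nerve+ calls depended on single rats. With all rats 871 genes were called. Without nerve+ day 3 rat 3 or day 14 rat 3 or 4, 0 genes in all were called, so none of these lists. Without nerve+ day 14 rat 1, 2 genes in all were called. Plod2, a lysyl hydroxylase, fell by 2.05 on the log2 scale in nerve+ rats (adjusted p = 0.0165), and P3h1, a prolyl hydroxylase, fell by 1.34 (adjusted p = 0.0258). Tmem38b, an ion channel of the endoplasmic reticulum, rose by 2.63 (adjusted p = 0.0439). P4hb, a subunit of prolyl hydroxylase, and Plod1 fell by 1.07 and 1.10 in nerve− rats (adjusted p = 0.0140 and 0.0141). No gene of the list was called by transection at any day in edgeR.

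Among 6 crosslinking genes, Lox, lysyl oxidase, fell by 2.13 in nerve+ rats and by 1.40 in nerve− rats from day 3 to day 14 (adjusted p = 0.0411 and 0.0117). It was the 1 gene of the list called in nerve+ rats, where 3.09% of all genes fell. That nerve+ call was also lost without nerve+ day 3 rat 3 or day 14 rat 3 or 4, when 0 genes in all were called. In nerve− rats Loxl2 also fell, by 1.08 (adjusted p = 0.0253), and Loxl4 rose by 1.91 (adjusted p = 0.0195), where 14.6% of all genes fell and 8.89% rose. Loxl1 rose by 1.05 in nerve− rats from day 3 to day 7 (adjusted p = 0.0170). Of 10 small leucine-rich proteoglycans, which coat fibrils, 4 rose in nerve+ rats and 5 in nerve− rats from day 3 to day 7, where 4.88% and 3.68% of all genes rose. Ogn was called in both (2.38, adjusted p = 0.0269, and 1.70, adjusted p = 0.0168). The nerve− calls from day 3 to day 7, Loxl1 and the 5 proteoglycans, depended on single rats. Without nerve− day 3 rat 1, 0 genes in all were called, against 1524 with all rats. Without nerve− day 7 rat 3, 3 genes in all were called. None of 10 collagen receptors was called in any of the 9 comparisons. Over all genes, 0% were called in the 3 transection comparisons, and 0.0202% and 0.0138% from day 7 to day 14. In the comparisons with day 3, 5.78% to 23.5% of all genes were called.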

How the data were processed

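RNA from healing tissue of 23 rats was sequenced on the DNBSEQ platform. Per the submitters' processing notes, HISAT, Bowtie2 and the mRatBN7.2 build were used, while the counting program is not given in the sources used here. The deposited values are expected counts per gene (37.0% of them whole), and they were rounded to whole numbers. Labels number the rats of each group separately, and p-values measure the spread between these rats.

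Each comparison was fitted on its own groups with edgeR 4.0.16 in R 4.3.3 (filterByExpr, TMM scaling, quasi-likelihood test, Benjamini-Hochberg adjustment over all genes tested, threshold 0.05). DESeq2 1.42.0, other scalings and filters, a replicate block, 1 fit of 23 rats and leaving out each rat were alternatives. Scripts were tested on simulated data, where unchanged genes made up a larger share of DESeq2's calls than of edgeR's and more than the adjusted threshold allows. Counts by DESeq2 are given as alternatives only. Ratios of counts were compared with two-sided exact permutation tests in SciPy 1.17.1. Tests are given for the called members, for the member with the highest mean level in each class and, among the gene lists, for genes with the smallest p in a direction. The added values of Col3a1, Col1a2, Col25a1, Col23a1 and Col9a2 were chosen after their values were seen. Members and gene lists were chosen with earlier results of these data known. Replicate numbers did not pair the rats (correlations of -0.401 to 0.492).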

Additional observations from a re-analysis of the deposited data

Results flagged for a closer look

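Over 25 quantities, 8 groups of 4 rats held 1 rat whose gap to the nearest other rat passed Dixon's 95% critical value. These are 6.4% of the groups tested, and chance alone flags about 1 group in 20. In nerve+ day 14 rat 2 the mean log2 level of the FACIT class was 4.15 against 5.58 to 5.70 in the others, Col14a1 was 18.2 CPM against 231 to 322 CPM, and the Col3a1 to Col1a1 ratio was 0.0866 against 0.611 to 0.711. In nerve− day 3 rat 3 the mean log2 level of the transmembrane class was 6.01 against 2.69 to 3.08. In nerve+ day 7 rat 1 the Col4a1 to Col4a2 ratio was 1.96 against 1.85 to 1.86. Col6a6 was 5.61 CPM in nerve+ day 7 rat 3 against 21.1 to 24.7 CPM. Col26a1 was 1.11 CPM in nerve− day 3 rat 1 against 5.81 to 7.57 CPM. Col28a1 was 5.59 CPM in nerve− day 14 rat 3 against 0 to 0.163 CPM.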

How the results depend on the processing

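DESeq2 called 1 member for transection at day 14 (103 of 20022 genes). In nerve+ rats it called 9 (day 7 against 3), 4 (day 14 against 7) and 10 (day 14 against 3), and in nerve− rats 7 and 11 (day 7 against 3, day 14 against 7). Over all 20022 genes these fits called 2750, 335 and 3409 in nerve+ rats and 3262 and 2012 in nerve− rats. With no filter on low counts the calls were 1 and 2 in nerve+ rats (days 7 and 14 against 3) and 1 and 3 in nerve− rats. Over all genes they were then 845, 608, 1174 and 3066. With the replicate block, which treats equal numbers as blocks, they were 1 and 0 in nerve+ rats and 0 and 2 in nerve− rats. Over all genes they were then 122, 0, 2 and 2350. With all 23 rats in 1 fit, 7 were called in nerve+ rats (day 14 against 3) and 3 in nerve− rats (day 14 against 7), and 2606 and 927 of 15858 genes. Scaling by library total left 1 in nerve− rats (day 7 against 3), and 1217 of 14576 genes. It moved the median log2 fold change of all genes from 0.026 to -0.41 for transection at day 14. With that scaling the 4 higher and 1 lower calls of nerve− rats (day 14 against 3) became 2 and 2. Without the rats with high tooth markers, a choice made after seeing the data, 0, 0 and 1 were called (nerve+ days 7 and 14, nerve− day 7, against day 3). The nerve+ fits then hold 1 day 3 rat, assumed to vary like the others, and call 5 and 1 genes in all, so their 0 says little of the members. Leaving out 1 rat gave 1 to 3, 0 to 9, 0 to 1 and 2 to 6 calls (nerve+ days 7 and 14, nerve− days 7 and 14, against day 3) and 0 to 0 in the others. Over all genes, the comparisons with day 3 gave 254 to 1547, 0 to 3133, 0 to 1359 and 1620 to 4346 calls, in the same order.

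The difference in medians reversed the Col3a1 to Col1a1 ratio for transection at day 3 (0.12) and day 7 (-0.072) and for nerve+ day 14 against 3 (0.18). Leaving out 1 rat gave -0.15 to 0.14, -0.11 to 0.27 and -1.60 to -0.59 for transection at days 3, 7 and 14. In nerve+ rats it gave 0.48 to 0.85, -1.47 to -0.45 and -0.83 to 0.19 (day 7 against 3, 14 against 7, 14 against 3), and in nerve− rats 0.58 to 0.87, -2.56 to -1.93 and -1.80 to -1.17. The log2 fold change of Col4a1 for transection at day 14 was 0.042 with the block and -0.52 to 0.16 with 1 rat left out. Such ranges at day 3 were -0.21 to 0.32 for Col12a1, -0.067 to 1.61 for Col13a1, -0.12 to 0.43 for Col1a1 and -0.15 to 0.38 for Col6a1, and at day 7 -1.05 to 0.14 for Col12a1 and -0.67 to 0.10 for Col1a1. The causes were not tested. Members with few counts carry the widest errors.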
